A study of Mus musculus with 46 samples.

Results

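Bile acid transport and synthesis was read here from 10 genes, given by name, of the 53465 gene entries in the count table: the transporters Slc10a1, Slco1b2, Slco1a1, Abcb11, Abcb4 and Abcc2, the synthesis enzymes Cyp7a1 and Cyp8b1, and the nuclear receptors Nr1h4 and Nr0b2. All 10 were found by symbol. Their messenger RNA was compared between C57BL/6 mice of 2 genotypes at postnatal day 23, P195A/p150- (p150-negative below) and P195A/p150+ (p150-positive), in liver and kidney, with cerebellum as a further organ. Every animal, the controls included, carries the P195A allele of Adar, the gene of the RNA-editing enzyme ADAR1, and p150 is the interferon-inducible isoform of that enzyme. As background known of such mice, the other allele makes no p150 in the p150-negative group and makes it in the p150-positive group. The labels used here give no sex, feeding state or hour of collection. Of 46 libraries from 16 animals, 5 whose organ genes went against their label were left out (columns 4, 5, 20, 31 and 34), a choice made from measured organ genes and with earlier results known. Liver then had 7 libraries of each genotype. Kidney had 5 p150-negative libraries and 7 of the other group, and cerebellum had 8 and 7. Total counts ran from 532311 to 4304331 in liver and from 269213 to 4875907 in kidney. In liver and kidney each library is 1 animal. The 10 genes were chosen by name with the genotype differences of these same libraries already known, so their values describe the set. The p-values set each difference against the spread between libraries and are no independent evidence of a direction.

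Bile acids are made from cholesterol in hepatocytes. CYP7A1 starts the main route and CYP8B1 directs it towards cholic acid. Hepatocytes take bile acids back up from blood through NTCP (Slc10a1) and, with other organic anions, through OATP carriers (Slco1b2, Slco1a1), and send them into bile through the bile salt export pump BSEP (Abcb11), beside MDR3-type phospholipid export (Abcb4) and MRP2 (Abcc2), which exports conjugates. Bile acids activate the receptor FXR (Nr1h4), which induces the corepressor SHP (Nr0b2) and Abcb11, and SHP represses Cyp7a1. In kidney, the proximal tubule reclaims filtered bile acids, chiefly through ASBT (Slc10a2).

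Of the 10 genes, 2 fell in p150-negative liver (Slco1a1 and Abcb11), where 4.76% of all genes tested fell at an adjusted p under 0.05. In kidney, where 4 of the 10 were tested and 0.309% of all genes fell, Slc10a1 fell. It entered that test only through the p150-positive group. The windows upstream of the starts of these 3 genes are printed to show the regulatory sequence beside the measurements. Each is 250 bases that end at the base before the RefSeq start (GRCm38.p6), read 5′ to 3′ on the gene's strand. All 3 genes lie on the minus strand: Slc10a1 (ENSMUSG00000021135) on chromosome 12 from 80953183 to 80968705, Slco1a1 (ENSMUSG00000041698) on chromosome 6 from 141907282 to 141946962 and Abcb11 (ENSMUSG00000027048) on chromosome 2 from 69238282 to 69342616. The windows are at chr12:80968706-80968955, chr6:141946963-141947212 and chr2:69342617-69342866. Capitals mark the nuclear receptor half-site AGGTCA on either strand, so that its complement reads TGACCT.
Slc10a1: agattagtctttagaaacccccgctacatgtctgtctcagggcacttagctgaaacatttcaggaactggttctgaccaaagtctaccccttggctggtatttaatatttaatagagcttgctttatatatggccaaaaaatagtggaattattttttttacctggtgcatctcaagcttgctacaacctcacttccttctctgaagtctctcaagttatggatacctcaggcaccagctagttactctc
Slco1a1: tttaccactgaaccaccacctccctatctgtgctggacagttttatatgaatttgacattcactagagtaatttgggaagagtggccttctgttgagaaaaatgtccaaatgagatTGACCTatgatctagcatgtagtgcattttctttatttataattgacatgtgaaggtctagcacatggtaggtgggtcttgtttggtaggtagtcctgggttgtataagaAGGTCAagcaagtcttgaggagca
Abcb11: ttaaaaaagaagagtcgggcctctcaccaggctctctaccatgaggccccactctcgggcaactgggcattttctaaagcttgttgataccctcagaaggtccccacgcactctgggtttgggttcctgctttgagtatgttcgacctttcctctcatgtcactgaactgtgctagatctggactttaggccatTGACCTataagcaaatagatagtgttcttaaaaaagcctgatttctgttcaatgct
The Slco1a1 window holds 2 copies, the Abcb11 window holds 1, and these letters do not occur in the Slc10a1 window printed. RefSeq gives Slc10a1 a further start inside the gene, and the window before that one (chr12:80968080-80968329, not printed) holds 1 copy. Over all 32851 RefSeq windows of that length, 14% hold the half-site. RefSeq windows matched 9 of the 10 genes, with 10 windows in all, of which 6 hold it. Other short motifs were searched in the same windows, and the half-site had the most matches. Another motif, held by 7.02% of all windows, occurs in the printed Slc10a1 window and in those of Slco1b2 and Nr0b2. The rest, held by 2.98% and 0.819% of all windows, were not found in the windows of these genes. The share with the half-site is therefore no test of enrichment. A match is a description of the letters and shows no binding.

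**Figure D1:**
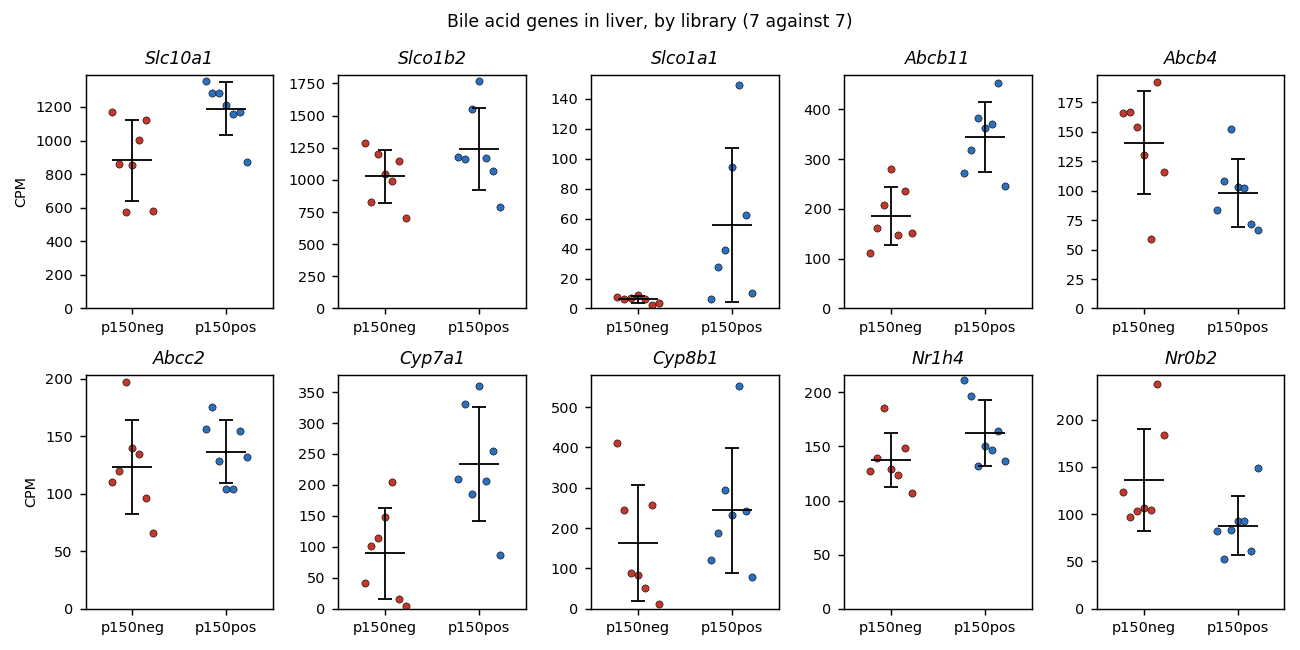
Level in CPM (counts per 1000000 counts of the library, linear axis from 0) of the 10 bile acid genes in each liver library, with points in order of animal number, the mean as a line and the SD as a bar (7 p150-negative in red, 7 p150-positive in blue). Abcb11 and Slco1a1 sit lower in p150-negative livers, with Slco1a1 at 8.83 CPM or less in all 7, and Cyp7a1 spreads from 3.76 to 204 CPM in them.

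In liver, an uptake carrier and the bile salt export pump were lower in p150-negative mice, while the main uptake carriers differed by less. Levels are in CPM on library totals. A log2 fold change below 0 means less RNA in p150-negative mice. Its standard error (SE) was derived from edgeR's quasi-likelihood test, as the absolute log2 fold change over the square root of F. It is approximate, above all where a group is near 0 counts. A gene counts as called where its p, adjusted by the Benjamini-Hochberg method across the 9843 genes of the liver fit, was under 0.05. All 10 genes were tested there, 2 were called, both lower, and 5 had an unadjusted p under 0.05. In the same fit 11.7% of all genes were called, 6.94% higher and 4.76% lower. Over all 9843 genes, 2292 had an unadjusted p under 0.05. The median log2 fold change of the 10 was -0.29, against -0.036 over all genes tested. In such bulk samples, fewer cells of a type and less RNA per cell cannot be told apart.

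Among the uptake carriers, Slco1a1 (OATP1A1) showed the largest difference of the 10 in liver. It ran from 2.64 to 8.83 CPM with a median of 6.58 in p150-negative livers, and from 6.51 to 149 CPM with a median of 39.2 in p150-positive ones. All 7 p150-negative livers lay below the p150-positive median, and the groups overlapped only through the p150-positive liver of animal 4 (6.51 CPM), with that of animal 15 next at 10.2 CPM. The log2 fold change was -3.14 ± 0.58 (SE; adjusted p = 8.37e-04). In p150-negative livers the gene rested on 101 counts over all 7 libraries, so its level there is read from few molecules. Slco1a1 is known to be higher in males, and Xist is an RNA of female cells. The 4 p150-positive livers with Xist under 1 CPM held 27.7 to 149 CPM of Slco1a1, and the 3 with at least 20 CPM of Xist held 6.51 to 39.2. In p150-negative livers the same split gave 6.58 to 8.83 (3 livers) and 2.64 to 6.85 CPM (4 livers), so the genotypes overlapped only among livers with Xist. With Xist as a covariate the fold change was -2.58 ± 0.49 (adjusted p = 0.00142). Slco1a1 has close relatives beside it on chromosome 6, so reads shared between copies make its value less certain. Annotated genes that overlap Slco1a1 or Abcb11 had at most 9 counts over the 14 livers.

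Slc10a1 (NTCP), the sodium-dependent uptake carrier, was the most abundant of the 10 per length. It ran from 572 to 1171 CPM (median 863) in p150-negative and from 870 to 1354 CPM (median 1213) in p150-positive livers. The difference, -0.36 ± 0.21 (adjusted p = 0.323), did not pass. Slco1b2 (OATP1B2), which carries bile acids and many drugs, averaged 1029 ± 206 CPM (SD, n = 7) in p150-negative livers and 1240 ± 322 (n = 7) in the others. The groups overlapped, and the difference of -0.22 ± 0.20 did not pass (adjusted p = 0.597).

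Among the exporters of the canalicular membrane, Abcb11 fell and Abcb4 did not. Abcb11 ran from 112 to 280 CPM (median 162) in p150-negative and from 247 to 453 CPM (median 363) in p150-positive livers. In 6 of 7 p150-negative livers it was below every p150-positive one. The log2 fold change was -0.89 ± 0.19 (adjusted p = 0.00406). Scaling the libraries on 14 hepatocyte genes in place of all genes gave -0.74 ± 0.24 and moved the adjusted p to 0.0534. Abcb4, the phospholipid exporter, averaged 141 ± 43.8 CPM in p150-negative livers and 98.1 ± 28.8 in the others, and its 0.57 ± 0.23 did not pass (adjusted p = 0.124). Among p150-negative livers, 6 exceeded the median of the others, and the exception was animal 11 at 59.2 CPM. Without that liver Abcb4 was called (0.71, adjusted p = 0.0261). Abcc2 averaged 123 ± 40.9 and 137 ± 27.3 CPM (-0.12 ± 0.19, adjusted p = 0.79).

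Cyp7a1 (chromosome 4, 6265612 to 6275633, minus strand), the rate-limiting enzyme, ran from 3.76 to 204 CPM with a median of 102 in p150-negative livers, and from 86.5 to 360 CPM with a median of 210 in p150-positive ones. All 7 p150-negative livers lay below the p150-positive median and 3 lay below every p150-positive liver. The lowest value is 2 counts in the shallow library of animal 16. The log2 fold change of -1.35 ± 0.49 did not pass (adjusted p = 0.0878). It was called with limma's voom (-1.71, 0.0428), with no expression filter (-1.38, 0.0148), without the p150-negative liver of animal 11 (-1.72, 0.0292) and with the letters that start the animal identifier as a block (-1.73, 0.00818). It was not called with DESeq2 (-1.38, 0.116), RLE size factors (-1.35, 0.0864), a stricter filter (-1.34, 0.0915) or robust dispersion (-1.35, 0.133). Nor was it called with all labelled libraries, with scaling on hepatocyte genes, or in the other 13 of the 14 fits without 1 liver. Cyp8b1 spread from 11.3 to 411 CPM in p150-negative and from 78.0 to 553 CPM in p150-positive livers. Its log2 fold change of -0.47 ± 0.53 (adjusted p = 0.67) was smaller than its SE.

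Nr0b2 (SHP; chromosome 4, 133553376 to 133556536, plus strand) had a positive sign. It ran from 97.5 to 238 CPM (median 106) in p150-negative and from 52.3 to 149 CPM (median 83.5) in p150-positive livers, and all 7 p150-negative livers were above the p150-positive median. The log2 fold change was 0.69 ± 0.26 (adjusted p = 0.0974). It was called without the p150-positive liver of animal 15 (0.87, adjusted p = 0.0254) and with the identifier block (0.67, 0.0327). Nr1h4 (FXR), the receptor that induces Nr0b2, stood at 137 ± 25.1 against 163 ± 30.4 CPM (-0.21 ± 0.15, adjusted p = 0.482).

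**Figure D2:**
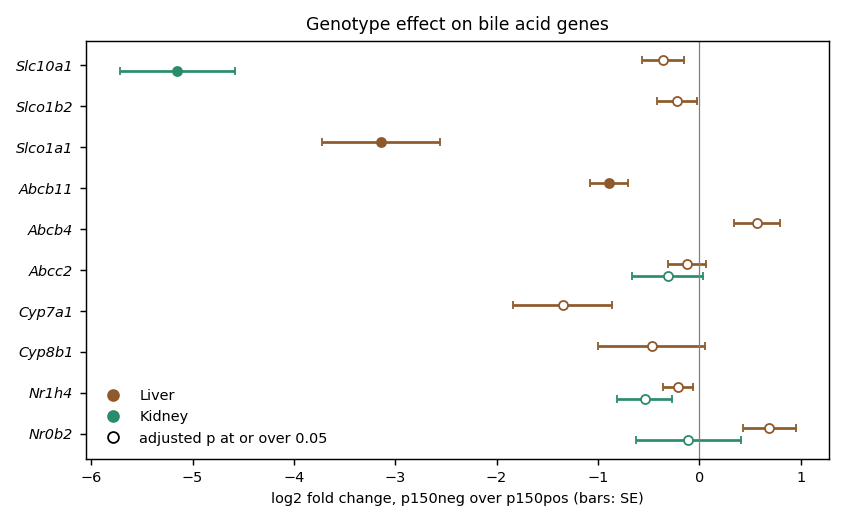
Log2 fold change of each bile acid gene, p150-negative over p150-positive, with its SE as a bar, in liver (brown) and for the 4 genes tested in kidney (green), with open symbols for an adjusted p of 0.05 or more. The filled symbols are Slco1a1 (-3.14) and Abcb11 (-0.89) in liver and Slc10a1 (-5.15) in kidney.

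Cyp7a1 and Nr0b2 varied in opposite directions among livers. Over the 14 livers, after each genotype's mean was removed, the log2 levels gave a Pearson's r of -0.79 (permutation p = 0.00133) and a Spearman's rho of -0.68 (permutation p = 0.00425). By Pearson's r this was the strongest of the 45 pairs among the 10 genes, while by rho Abcc2 with Nr0b2 (-0.74) and Abcb4 with Cyp8b1 (0.69) were stronger. The Benjamini-Hochberg adjusted values of Cyp7a1 with Nr0b2, 0.0598 and 0.119, did not pass. Without the 2 livers farthest from the median of Cyp7a1, r was -0.70. Within the 7 p150-negative livers r was -0.89 (exact permutation p = 0.0169), and within the 7 p150-positive ones -0.77 (exact permutation p = 0.0508), before adjustment. Depth was not held fixed, and the liver of animal 16 was the shallowest. The p150-negative livers of animals 14 and 16 had the most Nr0b2 (238 and 184 CPM) and the least Cyp7a1 (15.0 and 3.76 CPM). The Cyp7a1 value of animal 16 is 2 counts, below the 5.64 CPM that 3 counts make in that library. Among the p150-positive livers, animal 15 had the most Nr0b2 (149 CPM) and the least Cyp7a1 (86.5 CPM).

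**Figure D3:**
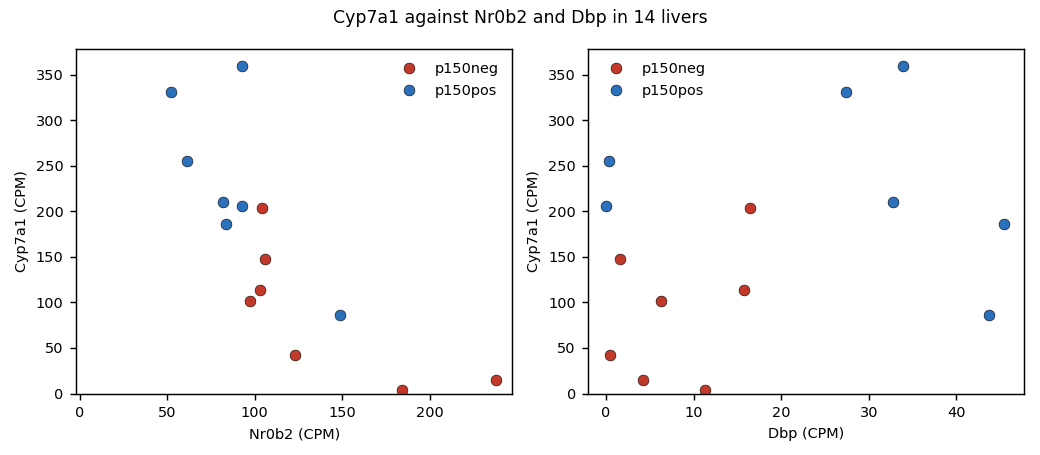
Cyp7a1 in each of 14 livers against Nr0b2 (left) and against the clock gene Dbp (right), in CPM on linear axes, with p150-negative in red and p150-positive in blue. The p150-negative livers with 238 and 184 CPM of Nr0b2 hold 15.0 and 3.76 CPM of Cyp7a1. The p150-positive livers with the least Dbp (0 and 0.386 CPM, animals 12 and 13) hold 206 and 255 CPM of Cyp7a1. These livers also hold 33.1 and 39.4 CPM of the clock gene Arntl, and the part of the clock was not tested.

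Genes of the daily clock, which is known to drive Cyp7a1, varied between libraries. Dbp, a clock output gene, ran from 0.507 to 16.4 CPM in p150-negative livers and from 0 to 45.5 CPM in p150-positive ones. Arntl, which peaks at the opposite phase, ran from 0.411 to 24.9 and from 0.594 to 39.4 CPM. Dbp did not pass the test between genotypes (-1.71 ± 0.76, adjusted p = 0.174), and edgeR called none of the 9 clock genes tested of 10 (1 with an unadjusted p under 0.05). The next smallest p-values were those of the clock genes Nr1d2 (-0.55 ± 0.30, adjusted p = 0.302), Nr1d1 (-0.94 ± 0.61, 0.399) and Tef (-0.59 ± 0.40, 0.415). The part of the clock in the Cyp7a1 values was not tested.

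Other genes of the pathway came from lists of 45 genes, chosen with the earlier results known. In liver 35 were tested, of which 5 rose and 2 fell, beside 11.7% called of all genes (6.94% higher and 4.76% lower). Their median log2 fold change was 0.02. Of 11 tested synthesis genes, Cyp2c70, which makes the muricholic acids of mice, fell from 1445 ± 245 to 721 ± 427 CPM (-0.99 ± 0.28, adjusted p = 0.0217). Scaled on hepatocyte genes, or without the p150-negative liver of animal 3, Cyp2c70 was not called. Acox2, which shortens the side chain in peroxisomes, rose from 296 ± 87.2 to 514 ± 104 CPM (0.85 ± 0.21, adjusted p = 0.00848). Cyp27a1, which opens the alternative route, was at -0.70 ± 0.25 (adjusted p = 0.0751) and Cyp7b1 of the same route at -0.61 ± 0.38 (0.363).

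Of 11 tested transport genes, 3 rose and 1 fell. Slco2b1, another OATP carrier, fell from 72.4 ± 27.0 to 20.2 ± 10.9 CPM (-1.83 ± 0.30, adjusted p = 3.07e-04). Slc51b, the beta subunit of the basolateral exporter and an FXR target, rose from 2.94 ± 2.85 to 14.6 ± 8.07 CPM (2.25 ± 0.54, adjusted p = 0.00816). Its lowest p150-negative liver, at 8.22 CPM, stood above the highest p150-positive one, at 6.68. Its partner Slc51a was at most 0.528 CPM in any liver. Abcg5 and Abcg8, which together export cholesterol into bile, rose by 0.76 ± 0.22 (adjusted p = 0.0247) and 0.80 ± 0.24 (adjusted p = 0.0349). Abcg5 was not called without any one of the livers of animals 1, 8 and 11, and Abcg8 without any one of those of animals 1, 3, 4, 6, 8, 9, 11, 12 and 15. Of 13 tested regulators only Ppargc1a, a coactivator of hepatic fasting genes, was called: it rose from 31.4 ± 8.27 to 57.2 ± 17.8 CPM (0.92 ± 0.27, adjusted p = 0.0273). It was not called with limma's voom, without libraries under 1000000 counts, or without any one of the livers of animals 1, 4, 6, 8, 14 and 16. The other 3 regulators with the smallest p were Klb, the coreceptor of the ileal bile acid hormone FGF15 (0.67 ± 0.27, adjusted p = 0.135), Foxa2 (-0.60 ± 0.31, 0.253) and Ppara (-0.33 ± 0.18, 0.306).

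**Figure D4:**
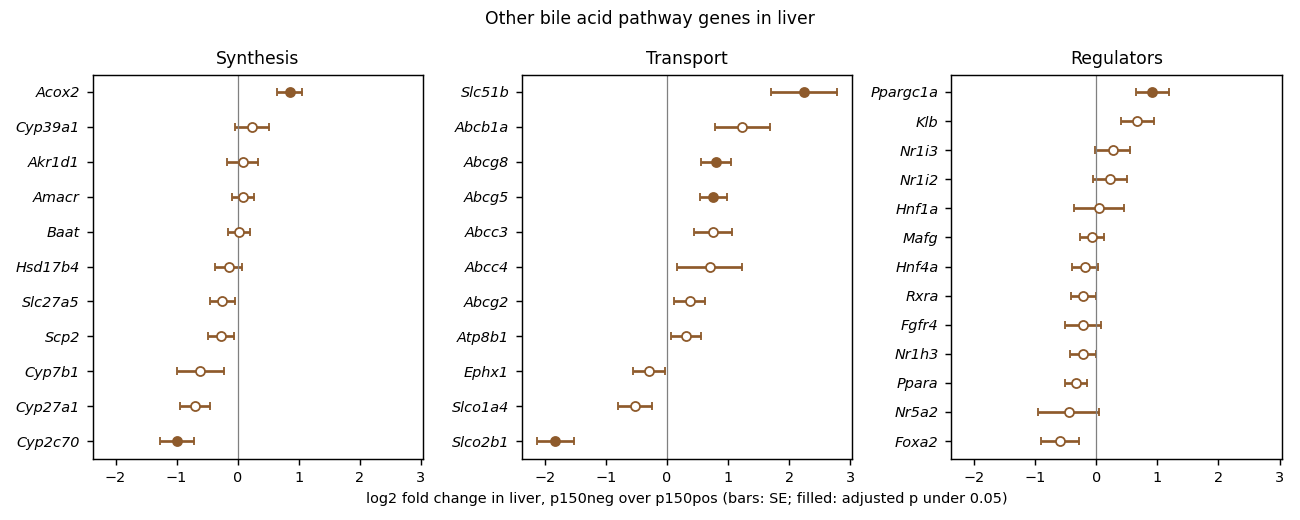
Log2 fold change in liver, p150-negative over p150-positive, of the 35 other pathway genes tested, split into synthesis, transport and regulators, with the SE as a bar and filled symbols for an adjusted p under 0.05. The 7 filled genes run from -1.83 (Slco2b1) to 2.25 (Slc51b).

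Genes of other cell types moved in the same livers. Summed neutrophil markers (6 genes) ran from 398 to 1538 CPM in p150-negative and from 22.6 to 169 CPM in p150-positive livers, and all 6 rose. Summed macrophage markers (6 genes) were at least 861 CPM in every p150-negative liver and at most 692 in the others, and 5 rose. The 14 hepatocyte genes found summed to 59218 to 101133 CPM and 72454 to 105100 CPM, with 1 called higher, 2 lower and a median log2 fold change of -0.15. Bile duct markers (5 genes) summed to 27.4 to 230 and 59.0 to 128 CPM. Of 4 markers of other kidney segments the sum was at most 7.10 CPM. The part of these cell types in the results was not tested beyond the scaling on hepatocyte genes given for Abcb11, under which Slco1a1 was at -3.04 ± 0.54 (adjusted p = 4.55e-04).

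With all labelled livers, the library of animal 2 included, which held 0.536 CPM of Slc10a1, Slco1a1 was still called (-3.40, adjusted p = 0.00548) and Abcb11 was not (-1.09 ± 0.53, adjusted p = 0.25). Of the 7 other pathway genes called in liver, Acox2, Cyp2c70, Abcg5 and Abcg8 were then not called. By the letters that start the animal identifier, whose meaning is not given in the sources used here, the log2 ratio of mean levels (CPM plus 0.5) of Abcb11 was -1.11, -0.82, -0.94 and -0.70 for P, AC, AA and AS. For Slco1a1 it was -1.24, -3.58, -4.33 and -1.33. AA and AS hold 1 liver of each genotype, and the code as a block gave -0.87 (adjusted p = 7.81e-04) for Abcb11 and -3.01 (5.86e-04) for Slco1a1.

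In kidney, Slc10a1 was present in every p150-positive library and close to 0 in every p150-negative one. The p150-positive kidneys held 22.0 to 50.1 CPM with a median of 43.2. The p150-negative kidneys held 1.71 CPM (animal 1), 0 (animal 3), 1.40 (animal 8), 0 (animal 9) and 1.23 CPM (animal 16). The groups did not overlap. The count of 0 in the shallow library of animal 3 allows a level of up to 11.1 CPM, and that of animal 9 up to 1.34 CPM. Over all libraries, 763 counts stood against 13, which relative to the total counts is a ratio of 32.3 (95% exact interval 18.8 to 60.9, for counting error only). The log2 fold change was -5.15 ± 0.57 (adjusted p = 3.31e-04). With at most 6 counts in any p150-negative kidney, Slc10a1 entered the tested genes only through the p150-positive group, where it is high, so its call is no share of the 4 members tested there. In this fit edgeR called 0.694% of 11957 genes, 0.309% lower, and 979 genes had an unadjusted p under 0.05.

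**Figure D5:**
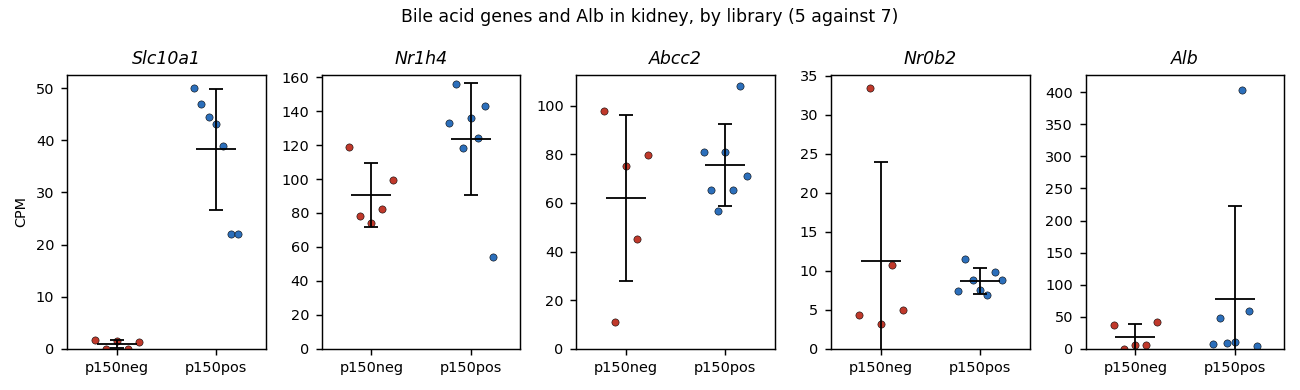
CPM (linear axis from 0) of the 4 bile acid genes tested in kidney and of Alb, in each kidney library, with the mean as a line and the SD as a bar (5 p150-negative in red, 7 p150-positive in blue). Slc10a1 is at 1.71 CPM or less in p150-negative and 22.0 CPM or more in p150-positive kidneys, and Alb is at 42.2 CPM or less in p150-negative kidneys and between 4.83 and 404 CPM in p150-positive ones.

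Liver RNA in the kidney libraries was measured by Alb, the albumin gene. It ran from 4.83 to 59.1 CPM in 6 p150-positive kidneys and was 404 CPM in the kidney of animal 10. At the ratio of Slc10a1 to Alb in p150-positive livers, that would bring 0.154 to 1.89 CPM of Slc10a1 in the 6 and 12.9 CPM in animal 10, where 22.0 to 50.1 and 38.9 CPM were measured. In the p150-negative kidneys the same sum gave 1.18 CPM in animal 1 (1.71 measured), 0 in animal 3 (0), 0.168 in animal 8 (1.40), 0.199 in animal 9 (0) and 1.35 in animal 16 (1.23). Alb itself averaged 18.1 ± 19.8 CPM in p150-negative and 77.4 ± 146 in p150-positive kidneys (-2.07 ± 1.10, adjusted p = 0.68), the same sign as Slc10a1. Of 9 hepatocyte genes tested in kidney, 8 had a negative sign, edgeR called none and 3 had an unadjusted p under 0.05, with Apob at -2.10 ± 0.57 (adjusted p = 0.133). Beyond these values, the part of liver RNA in the Slc10a1 difference was not tested. Other hepatocyte members stayed near 0 in these kidneys: Cyp8b1 at 4.00 CPM or less, Slco1b2 at 3.42 or less, Abcb4 at 2.99 or less, Abcb11 at 0.855 or less, Slco1a1 at 0.41 or less and Cyp7a1 at 0.855 or less. No other GENCODE M21 gene overlaps Slc10a1 on either strand.

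Slc10a1 was lower within each identifier code and each Xist level that held both genotypes. Since the groups did not overlap, any split gives this sign, so these values describe the libraries and are no further test. The log2 ratio of mean levels (CPM plus 0.5) was -5.14 for P, -5.11 for AC and -3.70 for AS (1 kidney each), and AA had no p150-negative kidney. Kidneys with more Xist held at most 1.40 CPM (3 p150-negative) against at least 22.0 (3 p150-positive), and those with Xist under 1 CPM at most 1.71 (2) against at least 22.1 (4). The p150-positive kidney with the least Dbp (7.07 CPM, animal 13) and that with the most (70.7 CPM, animal 15) held 22.1 and 22.0 CPM of Slc10a1, and the 5 between them (Dbp 22.1 to 41.0 CPM) held 38.9 to 50.1 CPM. The p150-negative kidneys held 4.90 to 15.2 CPM of Dbp, and the part of the clock in the kidney values was not tested. Proximal tubule markers (15 genes) summed to 11551 to 21444 CPM in p150-negative and 15556 to 19165 CPM in p150-positive kidneys, all 15 with a negative log2 fold change and none called by edgeR (7 with an unadjusted p under 0.05). Neutrophil markers (3 of 6 tested) had 1 called higher and red cell genes (4) had 2 called lower. Scaled on the proximal tubule genes, Slc10a1 was at -4.67 ± 0.61 (adjusted p = 6.74e-04).

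The call rests on the libraries kept. With all 15 labelled kidneys, 3 of which held RNA of other organs, Slc10a1 was at -3.43 ± 0.89 (adjusted p = 0.632). Those 3 held 13.6 CPM (animal 2, p150-negative), 0 (animal 11, p150-negative) and 0.556 CPM (animal 12, p150-positive).

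The genotype difference of Slc10a1 was larger in kidney than in liver. The log2 difference between the organs' genotype effects (liver minus kidney) was 4.72 ± 0.49 (adjusted p = 7.12e-07), in a fit where 1.50% of 12970 genes were called, 0.848% higher and 0.655% lower. Slc10a1 entered the kidney test only through the p150-positive group, so its call is no share of the members tested in both organs. The others of these were not called (Nr0b2 0.99, Nr1h4 0.33, Abcc2 0.17). With the animal as a block the difference was 4.54 ± 0.52 (adjusted p = 2.90e-04), and 117 genes were called in all. With all labelled libraries it was 2.88 and did not pass (adjusted p = 0.281).

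The other members seen in kidney did not pass. Nr1h4 averaged 90.6 ± 18.7 CPM in 5 p150-negative kidneys and 124 ± 33.1 in the 7 others (-0.54 ± 0.27, adjusted p = 0.64). All 5 lay below the median of the others, within their range. Abcc2, which sits in the brush border of the proximal tubule, averaged 61.9 ± 34.2 and 75.6 ± 16.9 CPM (-0.31 ± 0.35, adjusted p = 0.945). Nr0b2 averaged 11.3 ± 12.7 and 8.68 ± 1.64 CPM (-0.11 ± 0.52, adjusted p = 0.995). The first mean rests on the shallow kidney of animal 3 (33.4 CPM from 9 counts), the other 4 held 3.15 to 10.7 CPM, and without animal 3 the log2 fold change was -0.66. The 6 other members were at 4.00 CPM or less in every kidney kept and were not tested there.

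None of the 30 pathway genes tested in kidney was called by edgeR, with 7 at an unadjusted p under 0.05, beside 979 of all 11957 genes. DESeq2 called 3 and limma's voom called 0. The 3 were Slc10a2, Cyp7b1 and Nr1h3. Slc10a2, the ASBT carrier, stood at 14.9 ± 9.79 CPM in p150-negative and 4.71 ± 2.51 CPM in p150-positive kidneys (1.71 ± 0.56, adjusted p = 0.271 by edgeR), the opposite side from Slc10a1. Without the shallow kidney of animal 3, Slc10a2 was called by edgeR as well. The basolateral exporter Slc51b stood at 33.0 ± 17.0 against 61.3 ± 19.6 CPM (-0.93 ± 0.33, adjusted p = 0.342), and Abcc3 at 24.4 ± 16.3 against 58.3 ± 17.9 CPM (-1.22 ± 0.43, 0.331). Cyp7b1, which hydroxylates oxysterols, was at 9.36 CPM or more in every p150-negative kidney and at 6.59 or less in the others (2.65 ± 0.72, adjusted p = 0.13 by edgeR). Ch25h, which makes an oxysterol that Cyp7b1 uses, averaged 22.3 ± 23.7 and 3.74 ± 3.34 CPM (2.20 ± 0.75, 0.297). Nr1h3, the oxysterol receptor LXR alpha, averaged 21.0 ± 13.8 and 53.4 ± 16.7 CPM (-1.32 ± 0.43, 0.274). Of 9 clock genes tested none was called by edgeR and 3 had an unadjusted p under 0.05: Dbp (-1.96 ± 0.52, adjusted p = 0.115), Nr1d1 (-1.43 ± 0.53, 0.355) and Arntl (1.87 ± 0.69, 0.359).

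Compared per length, as CPM per kilobase of exon, p150-positive livers held the members in this order: Slc10a1 (541 ± 71.6), Slco1b2 (251 ± 65.2), Cyp8b1 (125 ± 79.5), Nr0b2 (77.3 ± 27.3), Nr1h4 (70.6 ± 13.2), Abcb11 (66.8 ± 13.7), Cyp7a1 (55.9 ± 22.1), Abcc2 (16.0 ± 3.20), Abcb4 (10.5 ± 3.07) and Slco1a1 (10.5 ± 9.71). The ranges of Slc10a1 and Slco1b2 did not overlap, and neither did those of Cyp7a1 and Abcc2. All other neighbours in the order overlapped. In p150-positive kidneys the order was Nr1h4 (53.6 ± 14.4), Slc10a1 (17.4 ± 5.28), Abcc2 (8.86 ± 1.98) and Nr0b2 (7.67 ± 1.44), of which all neighbours after Nr1h4 overlapped. In cerebellum, Nr0b2 was the sole member tested (0.90 ± 0.58, adjusted p = 0.686; 0.997% of all genes were called there, 0.723% higher), at 4.56 ± 2.67 CPM (n = 8) against 2.48 ± 2.01 CPM (n = 7). Slc10a1 reached at most 2.90 CPM there.

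By likeness over the 14 livers with genotype means removed, the genes closest to Slc10a1 were Nat8f4 (Pearson's r = 0.94), Zfyve1 (0.83) and Tcn2 (0.79). Those closest to Nr0b2 were Hsd17b13 (0.89), Gc (0.88) and Aspa (0.84). Those closest to Cyp7a1 were Acsl4 (0.89), Tsku (0.88) and Ttc39c (0.86). Closest to Slco1a1 were Tuba8 (0.93), C8b (0.80) and Gtf2e1 (0.77), and closest to Abcb11 were Zfp367 (0.88), Prkrip1 (0.86) and Srsf7 (0.85). For Slco1b2 they included Orc5 (0.91) and Slc25a46 (0.89), for Abcb4 they were Gk (0.88), Tfip11 (0.87) and Sec23a (0.83), and for Abcc2 Med14 (0.89), Map2k5 (0.88) and Ube2f (0.87). For Cyp8b1 they were Plbd1 (0.88), Fpgs (0.86) and Uba3 (0.85), and for Nr1h4 Vcam1 (0.95), Ripk1 (0.90) and Ets1 (0.90). These are the highest values over all genes with a mean log2 CPM of at least 3, in libraries that differ in depth, and are a description.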

How the data were processed

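The deposited table holds raw counts per gene. Its 46 columns each matched 1 sample title, and 0 were left over. Per the submitters' processing notes, STAR 2.4.2a, HTSeq 0.4.1, Picard 1.134, SAMtools 1.2, FastQC 0.11.3 and GRCm38 were used. The annotation and strand setting are not given in the sources used here. Per the labels' protocols, libraries were made with a Nextera XT kit from DNase-treated RNA. Of 53471 rows, 6 repeated another row's identifier and values and were dropped. Rows without a symbol (3433) held 0.267% of counts and were kept. No 2 libraries were identical.

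Each organ was fitted with edgeR 4.0.16 in R 4.3.3 (quasi-likelihood test, TMM, filterByExpr with a minimum count of 10 and total of 15), adjusted over all genes. The organ difference was the interaction in 1 fit of 26 libraries. Libraries were paired by animal number. Within these pairs, gene deviations correlated from -0.003 to 0.184 between liver and kidney, above 0.1 in 8 of 11 animals. Libraries of different animals were not compared, so these values do not test the pairing. Members, lists and the libraries kept were chosen with earlier results of these data known. Gene coordinates and exon lengths are from GENCODE M21. Named are all 10 members, up to 4 genes per organ from each pathway list and the clock list, by smallest adjusted p (in kidney the leading ones), and the 3 closest genes by correlation for each member, of which 1 is not reported here. Outside the rule, Slc51a, Apob and, in liver, Arntl were named after their values were seen. Correlations used 100000 permutations within genotype. The fit was checked on simulated counts. Alternatives were RLE, DESeq2 1.42.0, limma 3.58.1 (voom), other filters, robust dispersion, scaling on organ genes, Xist or identifier letters as covariates, all labelled libraries, no libraries under 1000000 counts, and each library left out.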

Additional observations from a re-analysis of the deposited data

Results flagged for a closer look

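In p150-positive mice, animal 15 stood apart from its group in 3 of the 28 groups of values checked for a library far from the others. Its liver held 870 CPM of Slc10a1, with the next lowest at 1161, and 149 CPM of Nr0b2, with the next highest at 92.7. Its kidney held 54.0 CPM of Nr1h4, with the next lowest at 118. Among p150-negative kidneys, animal 3, the shallowest library, held 33.4 CPM of Nr0b2, with the next highest at 10.7. Chance flags about 1 in 20 such groups.

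The genotype effect on Slc10a1 differed between liver and kidney by 4.72 on the log2 scale, as tested by the interaction. The gene entered the kidney test only through the p150-positive group, where it is high. With all labelled libraries the difference was not called.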

How the results depend on the processing

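Slco1a1 in liver was lower and called under all 11 alternatives run and in all 14 fits without 1 liver. Over all labelled libraries, 1 member was called in liver, 0 in kidney and 0 for the organ difference, 3 pathway genes in liver, and 740 genes in liver, 1 in kidney and 71 for the difference, where Slc10a1 was at 2.88; the kidney values of Abcc2, Nr1h4 and Nr0b2 turned to 0.11, 0.24 and 0.47, and the differences of Abcc2 and Nr1h4 to -0.32 and -0.52. With the identifier letters as a block, 4 members were called in liver and 32 genes in kidney. Over all genes of that liver fit, 2544 had an unadjusted p under 0.05, against 2292 in the main fit. The share of all liver genes called in that fit is not reported here, so the 4 members cannot be set against it. Scaled on hepatocyte genes, 1 member was called in liver, Abcc2 was at 0.01, and the split of all calls was 656 higher and 281 lower (683 and 469 otherwise). Scaled on proximal tubule genes, the median log2 fold change of all kidney genes went from -0.066 to 0.501, 300 genes were called (283 higher and 17 lower, against 46 and 37), 2 pathway genes were called, and Abcc2, Nr1h4 and Nr0b2 stood at 0.21, 0.08 and 0.61. In kidney, DESeq2 called 306 genes and 3 pathway genes, no filter gave 141 genes, and leaving out libraries under 1000000 counts gave 211 genes and 1 pathway gene. The animal as a replicate block gave 117 genes for the organ difference, fewer than without it, and changed no call of a member. The causes were not tested. Leaving out each library gave 2 to 4 members and 4 to 7 pathway genes in liver, 904 to 1489 genes there, 1 member in kidney each time, 0 to 1 pathway genes and 34 (without p150-negative animal 8) to 211 genes (without animal 3) there. For the organ difference it gave 1 member and 139 to 225 genes. Nr0b2 in kidney ran from -0.66 to 0.18 (0.14, 0.18 and 0.12 without p150-negative animals 1, 8 and 16), and the difference of Abcc2 from -0.02 (without animal 3) to 0.40.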

Other observations

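In the libraries left out, the member genes took other levels. The library labelled kidney of animal 11 held 320 CPM of Nr1h4 and 216 CPM of Abcc2, against at most 156 and 108 CPM in the kidneys kept, and 0 of Slc10a1. The library labelled kidney of animal 2 held 10.8 CPM of Cyp8b1 and 26.9 CPM of Nr0b2. That of animal 12 held 43.4 CPM of Nr1h4 and 30.6 CPM of Nr0b2. The library labelled liver of animal 2 held 137 CPM of Nr1h4 and 94.1 CPM of Abcc2, and 0 of Slco1a1 and Cyp8b1.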
